A study of Bos taurus and Sus scrofa with 10 samples.

Results

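Molecular chaperones of the heat shock protein families were described from the oocyte to the blastocyst in cattle (Bos taurus, called cow here) and in pigs (Sus scrofa). The genes were a list of 10 symbols, taken as the rows of each species' gene table that carry exactly that symbol. The cow table gave 8 of them among 22845 gene rows and the pig table gave 6 among 21867, and 4 symbols (HSPA8, HSPA14, HSPE1 and HSPB1) had a row in both. HSPA5 and HSP90AB1 in cow, and HSPA9, HSP90AA1, HSP90B1 and HSPD1 in pig, were not analysed here. Total RNA was sequenced at 5 stages, namely oocyte, 2-4 cell, 8-16 cell, morula and blastocyst, with 1 library per stage and species; no genotype or treatment is named. Where 5 values follow each other below, they stand in that order. There were 10 libraries and no replicates, so no difference below has a replicate check, and intervals cover counting error only. The labels give no strain, no age of the donors, no number of oocytes or embryos per library and no statement on how embryos were produced.

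Chaperones bind unfolded or partly folded proteins and keep them from aggregating. HSP70 proteins bind short exposed stretches in a cycle driven by ATP, assisted by J-domain proteins and nucleotide exchange factors, while HSP90 proteins act later, on clients that are nearly folded, such as kinases and hormone receptors. Each compartment has its own set: HSPA8, HSPA14, HSP90AA1, HSP90AB1 and HSPB1 work in the cytosol, HSPA5 and HSP90B1 in the endoplasmic reticulum (ER), and HSPA9 and the HSPD1-HSPE1 chaperonin in mitochondria. In embryos, stored maternal transcripts are replaced by transcripts of the embryo's own genome over the first cleavages, and heat shock protein genes are among the transcripts long followed through that change.

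Levels are a gene's reads in every 1000000 that the library holds (RPM). They carry no correction for gene length, so they compare a gene between stages and not one gene with another. Differences between stages are differences of log2(RPM + 1), which understate changes of low genes, and a gene was called changed at 2 or more in size, 4-fold on that scale, provided that either library held 1 RPM or more. The words rose and fell are kept for called changes. Read totals lay between 3899291 and 14182046 in cow and between 3002751 and 4138616 in pig. Mitochondrial genes took between 2.74% and 30.2% of the cow reads, with the highest share in the blastocyst library, and between 6.06% and 18.6% of the pig reads, and RPM of all other genes falls as that share grows. Sums of marker genes followed the stage labels. Between oocyte and blastocyst the summed oocyte markers went from 7512 to 0.353 RPM (cow) and 9843 to 39.7 RPM (pig). The summed blastocyst markers went from 222 to 4419.7 RPM (cow) and 76.4 to 8438 RPM (pig). Large parts of these blastocyst sums were KRT8 (1490 RPM cow, 3629 RPM pig) and KRT18 (1021 RPM cow, 2681 RPM pig). Of the blastocyst markers compared over that course, 10 of 12 rose in cow and 10 of 11 in pig. Cow ATP1B1 fell, and cow AQP3 fell from morula to blastocyst. SOX17 had 0 reads in the pig blastocyst library. Of the cumulus cell markers, 19 had a row in cow and 15 in pig. Their sum ranged from 70.01 RPM in the cow morula library to 1074 RPM in the cow blastocyst library, 902 of which came from PTGS2, and from 149 to 2172 RPM in pig, with 1809 from PTGS2 at the blastocyst. The cow oocyte library had 12 of its 19 at 1 RPM or more, with a sum of 561 RPM (HAS2 141 RPM, PTGS2 91.3 RPM), and 5 at 0 reads (CYP11A1, LHCGR, AMH, COL1A1 and FST). The pig oocyte library had 7 of 15 at 1 RPM or more, with a sum of 184 RPM (GREM1 17.5 RPM), and 6 at 0 reads (TNFAIP6, PTGS2, CYP11A1, INHBA, COL1A1 and VIM). Whether such cells have a part in any value below was not tested. In bulk libraries of this kind, fewer cells of a type and less RNA per cell cannot be told apart.

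Read as 1 group, the chaperone genes took their smallest share of reads at the 8-16 cell stage and their largest at the blastocyst in both species. The 8 cow genes together held 0.380%, 0.465%, 0.184%, 0.214% and 0.598% of the reads. The 6 pig genes held 0.149%, 0.115%, 0.0909%, 0.230% and 0.435%. These sums rest on different genes in each species and are carried by HSP90AA1, HSP90B1 and HSPA8 in cow and by HSP90AB1 and HSPA8 in pig.

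**Figure D1:**
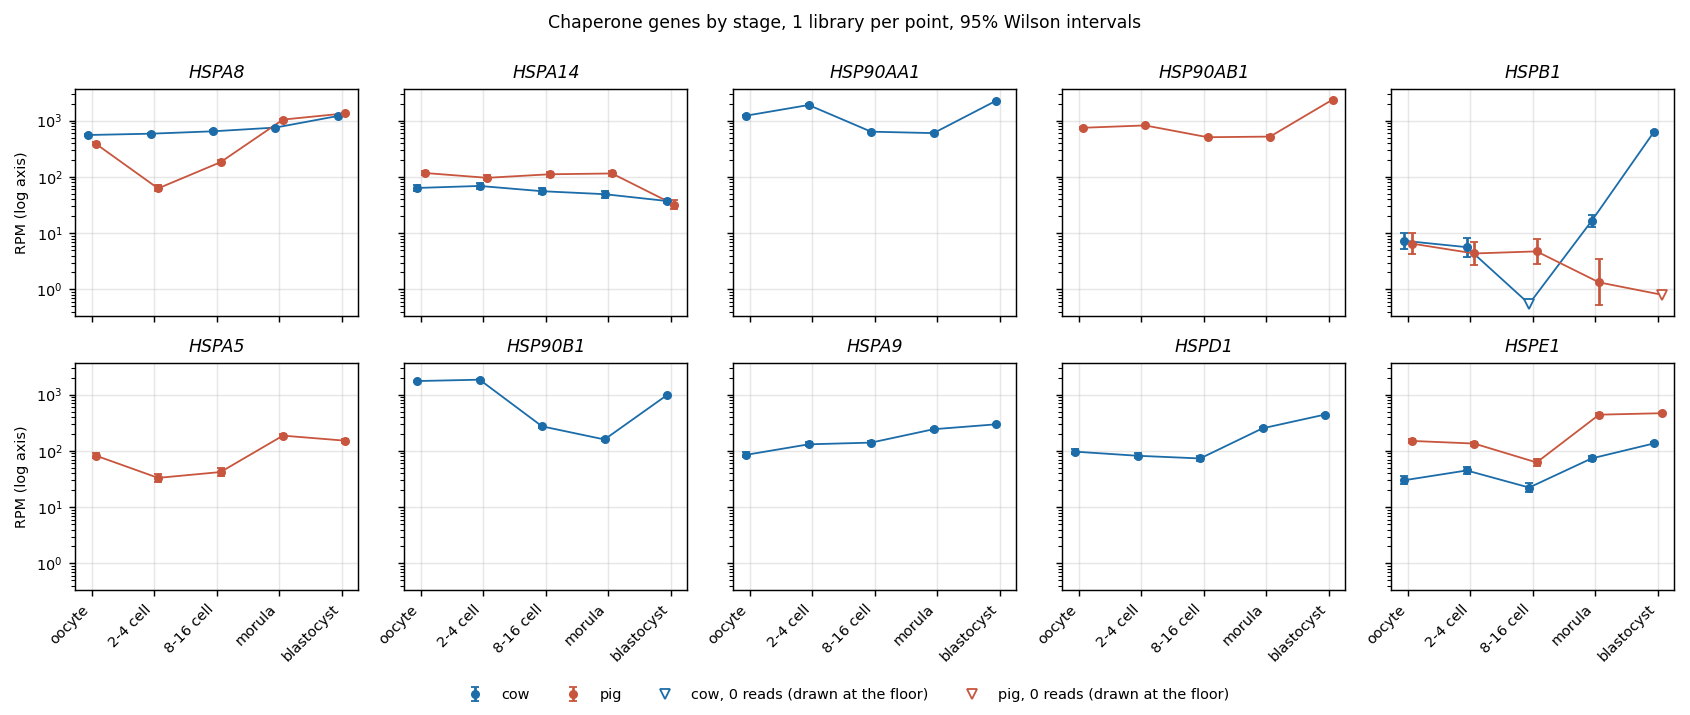
RPM (log axis) of each chaperone gene at the 5 stages, cow in blue and pig in red, 1 library per point with 95% Wilson intervals; open triangles mark 0 reads, drawn at the floor of 3 reads, and the tables of both species were scaled separately. HSPB1 reached 633 RPM in the cow blastocyst library and had 0 reads in the pig blastocyst library, while HSPA8 dipped to 62.3 RPM at the pig 2-4 cell stage.

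The small heat shock protein HSPB1 (HSP27), which holds unfolding proteins without using ATP and associates with actin filaments, had the widest range over the stages among the 8 cow genes and went opposite ways in the 2 species. In pig its range was 2.60 on the log2(RPM + 1) scale, below those of HSPA8 (4.41) and HSPE1 (2.89). It lies on cow chromosome 25, 34858435 to 34861074, and on pig chromosome 3, 10037946 to 10039704; positions are those of the tables, and the submitters' processing notes name the builds UMD3.1 and Sscrofa11.1 without tying either to a table. Its cow levels were 7.30 RPM (95% Wilson interval 5.27 to 10.1), 5.63 RPM, 0 reads, 16.4 RPM and 633 RPM (620.03 to 646). The oocyte and 2-4 cell intervals overlap, the 8-16 cell library lies below both, and the blastocyst library stands far above the other four. From oocyte to blastocyst it rose 86.7-fold in RPM (exact interval of the ratio 62.6 to 124), a difference of 6.25. In between it fell from the 2-4 cell to the 8-16 cell stage (a difference of -2.51) and rose again in the morula (3.90). The 8-16 cell floor of 3 reads is 0.552 RPM. The 2-4 cell level was 10.2 times that floor, and the exact lower limit of the fall was 7.70-fold. The morula level was 29.7 times that floor, and the exact lower limit of the rise was 23.5-fold. The morula to blastocyst rise was 38.6-fold (30.2 to 50.1), a difference of 5.19.

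In pig HSPB1 was low throughout and at 0 reads at the end. Its levels were 6.51 RPM (22 reads, 4.30 to 9.86), 4.35 RPM, 4.74 RPM, 1.33 RPM (4 reads) and 0 reads, with a blastocyst floor of 0.804 RPM. Neighbouring levels in this order have overlapping intervals, and the step from morula to blastocyst is not detectable at this depth. In RPM the oocyte level was 8.10 times the blastocyst floor, and the exact lower limit of the fall was 6.05-fold. From oocyte to blastocyst HSPB1 fell by 2.60 on the log2(RPM + 1) scale. With 5 RPM added in place of 1 that difference was -1.14 and no longer called, and neither was the cow fall to the 8-16 cell stage (-1.04). A gene without symbol (ENSSSCG00000037567) lies inside the pig HSPB1 span on the other strand, from 10038386 to 10039549, with 0 to 3 reads per library. Whether strand was used in counting is not given, and whether HSPB1 reads were lost in the shared part was not tested. No test of the difference between species was possible with 1 library each, and the tables were scaled separately.

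HSPA8 (HSC70), the constitutive cytosolic HSP70 that also uncoats clathrin vesicles, was steady across the early cow stages and dipped deeply in pig. It lies on cow chromosome 15, 34216278 to 34220705, and on pig chromosome 9, 49978078 to 49988038. Cow levels were 555, 585, 645, 752 and 1208 RPM. The oocyte and 2-4 cell intervals overlap, each later library lies above the one before it, and no step reached the threshold. Over the whole course the cow level was 2.18-fold higher at the blastocyst (2.09 to 2.27), a difference of 1.12.

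Pig HSPA8 levels were 389.6 RPM (369 to 411), 62.3 RPM (55.2 to 70.4), 182 RPM, 1042 RPM and 1345 RPM. No intervals overlap, and the 2-4 cell library is the lowest. The first step was a 6.25-fold fall (5.47 to 7.17), a difference of -2.62, and the step to the morula a 5.72-fold rise (5.23 to 6.26), a difference of 2.51. In the first pig step 1 of 6 chaperone genes fell, HSPA8, where 2.17% of 11362 compared gene rows fell, 3.26% rose and 5.43% were called either way. The cow difference at the same step was 0.08 and turned to -0.01 when scaled to non-mitochondrial gene reads and to -0.24 by median-of-ratios. HSPA8 belongs to a family of close relatives with many processed copies, and the sources used here do not give how multiply matching reads were handled, so its level is uncertain to that extent.

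HSPA14, a ribosome-bound HSP70 relative that works with a J-domain partner on chains as they leave the ribosome, was lowest at the blastocyst in both species, and no step passed the threshold. It lies on cow chromosome 13, 29778732 to 29803330, and on pig chromosome 10, 46908301 to 46936971. Cow levels were 63.5, 68.9, 55.6, 49.2 and 37.2 RPM. Ordered by level, each of the first 4 stages overlaps its neighbour, and the blastocyst lies below. Pig levels were 117, 96.2, 111, 115 and 31.9 RPM, again overlapping in level order except for the blastocyst, which lies below. The difference from oocyte to blastocyst was -0.75 in cow, 1.71-fold lower (1.48 to 1.96), and -1.85 in pig, 3.67-fold lower (2.99 to 4.55). CDNF overlaps the pig gene with at most 5 reads per library, and a SNORD22 row lies inside the cow gene with at most 1 read, so these neighbours hold few reads of their own.

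The cytosolic HSP90 genes were highest at the blastocyst in both species. HSP90AA1, the stress-inducible form, lies on cow chromosome 21, 68595873 to 68601204, and was at 1224, 1892, 636, 599 and 2250.03 RPM in cow. The 8-16 cell and morula libraries form a trough with overlapping intervals. HSP90AA1 was 2.98-fold lower at the 8-16 cell than at the 2-4 cell stage (2.86 to 3.098, a difference of -1.57), and 3.76-fold higher in the blastocyst than in the morula library (3.601 to 3.92). That last difference, 1.91, lies just below the threshold and passed it when scaled to non-mitochondrial gene reads (2.19) or by median-of-ratios (2.05).

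HSP90AB1, the constitutive form, lies on pig chromosome 7, 39237294 to 39254002, and was at 745, 821, 507, 519.5 and 2356 RPM over the pig stages. The 8-16 cell and morula libraries again overlap and are the lowest, and the blastocyst is well above the rest. The step from morula to blastocyst was a 4.53-fold rise (4.30 to 4.79), a difference of 2.18, which quantile normalisation took to 1.82, below the threshold. The 3' part of the pig row overlaps SLC35B2 on the other strand. SLC35B2 was at 70.5 RPM in the oocyte, 43.3 RPM in the morula and 609 RPM in the blastocyst library. Whether strand was used in counting is not given, so reads of both genes cannot be told apart in the shared part. HSP90AA1 and HSP90AB1 are related in sequence and were each analysed in 1 species; whether any reads were shared between them was not tested.

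Of the ER chaperones, HSP90B1 fell and rose again in cow, and HSPA5 rose at the morula in pig. HSP90B1 (GRP94), the HSP90 of the ER that folds integrins and Toll-like receptors, lies on cow chromosome 5, 67940792 to 67959532. Its levels were 1741, 1839.5, 273, 159 and 979 RPM. None of these intervals overlap, and the morula is the lowest. The fall to the 8-16 cell stage was 6.74-fold (6.38 to 7.13), a difference of -2.75, and the rise from morula to blastocyst was 6.14-fold (5.67 to 6.67), a difference of 2.61. The blastocyst level stayed 1.78-fold below that of the oocyte (1.73 to 1.83).

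HSPA5 (BiP), the ER HSP70 that binds nascent secretory proteins and holds the stress sensors of the unfolded protein response inactive, lies on pig chromosome 1, 265930042 to 265947997. Its levels were 82.6, 33.1, 42.01, 186 and 151 RPM. The 2-4 cell and 8-16 cell libraries overlap and are the lowest, and the morula is the highest. The rise from the 8-16 cell stage to the morula was 4.44-fold (3.67 to 5.405), a difference of 2.12. It dropped below the threshold with median-of-ratios scaling (1.93) and with quantile normalisation (1.99).

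The mitochondrial chaperones were lowest in the oocyte or 8-16 cell library and highest at the blastocyst. HSPA9 (mortalin), the HSP70 of the matrix that pulls imported proteins through the inner membrane, lies on cow chromosome 7, 51506219 to 51521515, and was at 84.99, 131, 140.1, 242 and 296 RPM. The 2-4 cell and 8-16 cell intervals overlap, and the others are ordered by stage. Its level was 3.48-fold higher at the blastocyst than in the oocyte (3.15 to 3.86), a difference of 1.79. That is below the threshold, and it passed when scaled to non-mitochondrial gene reads (2.19) and with quantile normalisation (2.31).

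HSPD1 (HSP60) and HSPE1 (HSP10) form the barrel and the lid of the mitochondrial chaperonin, and their genes stand head to head. In the cow table HSPD1 ends its span at 86449372 on chromosome 2, from 86438979, on the minus strand, and HSPE1 runs from 86449525 to 86451564 on the plus strand, which leaves 152 bases between them. HSPD1 was at 96.8, 81.8, 73.3, 252 and 442 RPM over the cow stages, and HSPE1 at 30.02, 44.8, 22.3, 73.3 and 136 RPM. Both were lowest at the 8-16 cell stage, where the HSPD1 interval overlaps that of the 2-4 cell library and the HSPE1 interval that of the oocyte library, and both were highest at the blastocyst. From oocyte to blastocyst HSPD1 rose 4.56-fold (4.16 to 5.02), a difference of 2.18, and HSPE1 rose 4.52-fold (3.82 to 5.38), a difference of 2.14. At the step to the morula the differences were 1.77 and 1.68, both below the threshold.

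The balance of both chaperonin transcripts was nearly constant in cow, with 1 library as the exception. HSPE1 took 23.7% of the pair's reads in the oocyte (exact interval 20.4 to 27.2), 23.3% in the 8-16 cell (19.7 to 27.2), 22.6% in the morula (20.3 to 24.98) and 23.5% in the blastocyst library (22.6 to 24.4). The 2-4 cell library had 35.4% (31.5 to 39.5), above the intervals of the other four. The share is not per length, so its change between stages can be read and its size cannot. Both genes are known to have processed copies elsewhere in mammalian genomes, and their reads may have been split among them.

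**Figure D2:**
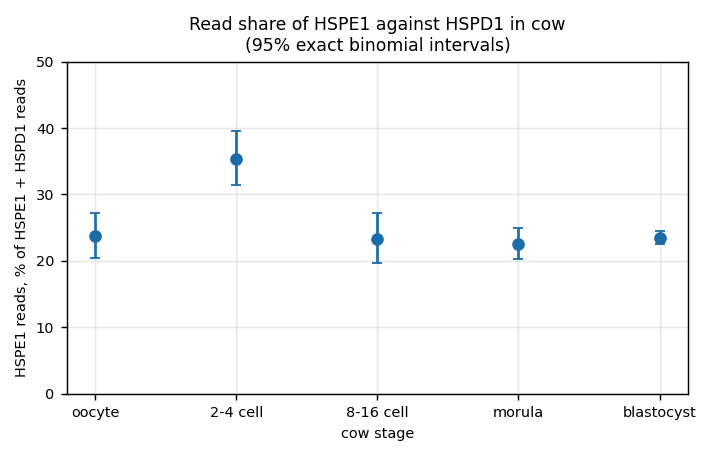
HSPE1 reads as a percentage of HSPE1 plus HSPD1 reads in the 5 cow libraries, with 95% exact binomial intervals that cover counting error only. The 2-4 cell library is at 35.4% and the other four lie between 22.6% and 23.7%.

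In pig HSPE1 (chromosome 15, 101373976 to 101376144) had its low point at the same stage and rose at the morula. Its levels were 150.1, 135, 62.2, 439.6 and 467 RPM. Intervals overlap between the oocyte and the 2-4 cell library and between morula and blastocyst, and the 8-16 cell library is below all others. The rise to the morula was 7.07-fold (6.08 to 8.25), a difference of 2.80, the largest of the 6 pig genes at that step. Cow HSPE1 was 3.29-fold higher in the morula than at the 8-16 cell stage (2.65 to 4.11).

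Set by step, the calls among the chaperone genes were few. For cow, the move from oocyte to 2-4 cell had 0 of 8 genes called, where 0.196% of 11226 compared rows rose, 0.178% fell and 0.374% were called either way. From 2-4 cell to 8-16 cell 2 of 8 fell (HSP90B1 and HSPB1) and 0 rose, where 14.6% of 12405 rows fell, 12.6% rose and 27.2% were called either way. Toward the morula 1 of 8 rose (HSPB1) and 0 fell, where 6.67% of 12334 rows rose, 5.15% fell and 11.8% were called. Toward the blastocyst 2 of 8 rose (HSPB1 and HSP90B1) and 0 fell, where 11.9% of 12653 rows rose, 11.5% fell and 23.4% were called. Over the whole course 3 of 8 rose (HSPB1, HSPD1 and HSPE1) and 0 fell, where 21.8% of 12738 rows rose, 18.4% fell and 40.2% were called. The median difference of the 8 genes over that course was 1.46, beside 0.18 over all compared rows.

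For pig, the first step is given with HSPA8 above, and from 2-4 cell to 8-16 cell 0 of 6 genes were called, where 4.33% of 12153 rows rose, 0.543% fell and 4.87% were called either way. Toward the morula 3 of 6 rose (HSPA8, HSPA5 and HSPE1) and 0 fell, where 12.0% of 12746 rows rose, 11.3% fell and 23.3% were called. Toward the blastocyst 1 of 6 rose (HSP90AB1) and 0 fell, where 13.8% of 12567 rows rose, 13.8% fell and 27.6% were called. Over the whole course 1 of 6 fell (HSPB1) and 0 rose, where 19.2% of 12512 rows fell, 26.0% rose and 45.2% were called. HSPA8, HSP90AB1 and HSPE1 were between 3.11-fold and 3.45-fold higher in the pig blastocyst than in the pig oocyte, with differences of 1.79, 1.66 and 1.63 that lie under the threshold. The pig median was 1.25, beside 0.43 over all rows. With 8 and 6 genes, a share near the background is not a result about the group.

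**Figure D3:**
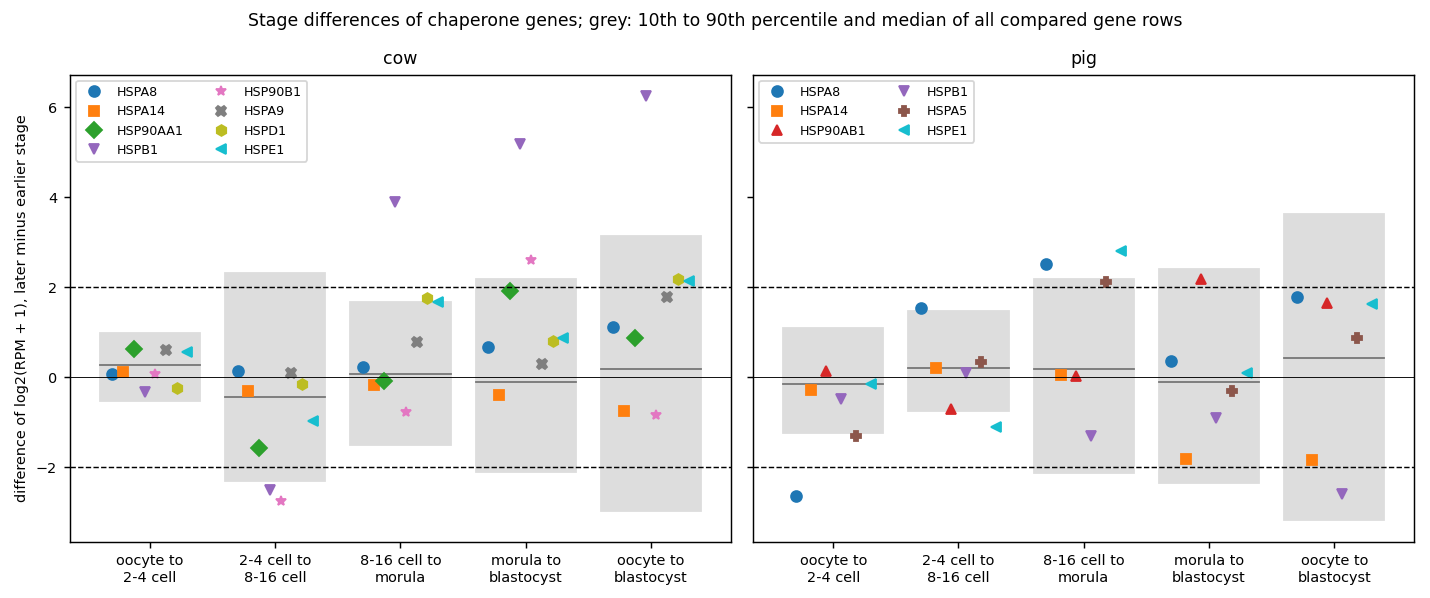
Difference of log2(RPM + 1) of each chaperone gene, later minus earlier stage, for 4 consecutive steps and the whole course in cow (left) and pig (right); grey boxes span the 10th to 90th percentile of all compared gene rows, the grey line is their median, and dashed lines mark the threshold of 2. HSPB1 stands at 6.25 for the cow course and -2.60 for the pig course, and pig HSPA8 at -2.62 for the first step.

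Profiles were also compared across all 10 libraries, by the Euclidean distance of log2(RPM + 1) after centring each species, among 6278 shared symbols that reached 10 RPM somewhere in each species. The symbol closest to HSPA8 was PSMD7, a subunit of the proteasome lid, at a distance of 0.77 (median of all candidates 4.69). For HSPA14 it was CHORDC1, an HSP90 co-chaperone, at 0.52 (median 3.77), and for HSPE1 it was ESYT2 at 1.20 (median 4.43). HSPB1 never reached 10 RPM in pig and was not ranked. Among the chaperones themselves, HSPD1 and HSPE1 were the closest cow pair (0.76), nearly level with HSPA8 and HSPA9 (0.76), and HSPA5 and HSPE1 were the closest pig pair (1.15).

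The partners of HSP70 were examined next, as lists of their class. Of 7 other cow HSP70 family genes compared from oocyte to blastocyst, 0 rose and 1 fell, and of 8 in pig, 2 rose and 3 fell, beside backgrounds of 21.8% rising and 18.4% falling in cow and 26.0% and 19.2% in pig. The list medians were -0.55 (cow, all rows 0.18) and -0.65 (pig, all rows 0.43). HSPA4L, an HSP110 relative that acts as an exchange factor for HSP70, fell in both: oocyte and blastocyst levels were 508.5 and 0.494 RPM for cow, a difference of -8.41, and 465 and 97.1 RPM for pig, a difference of -2.25. The pig HSPA4L row overlaps MFSD8 and an RNA gene row. HSPA1A, the classical stress-inducible HSP70, was at 62.9, 107, 11.6, 6.15 and 17.7 RPM over the cow stages. It fell from the 2-4 cell to the 8-16 cell stage. Pig HSPA12A, whose row overlaps ENO4, fell from 207 to 13.9 RPM. Pig HSPA13 rose from 0 oocyte reads to 19.8 RPM at the blastocyst, 22.3 times the floor of 3 reads.

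J-domain proteins, which deliver clients to HSP70 and start its ATP cycle, were called in shares near or below those of all rows. Over the whole course 5 of 37 rose and 8 fell in cow, where 21.8% of all rows rose and 18.4% fell, and 6 of 36 rose and 6 fell in pig, where 26.0% rose and 19.2% fell. The list medians were -0.46 (cow, all rows 0.18) and -0.02 (pig, all rows 0.43). DNAJB4 fell in cow (54.8 to 1.69 RPM) and pig (39.97 to 1.88 RPM), and so did DNAJC21 (114 to 20.03 RPM and 1605 to 37.0 RPM). DNAJC25 rose in cow (4.67 to 33.1 RPM) and pig (2 reads to 19.6 RPM). DNAJB9, an ER J-domain protein that assists BiP, had 1 read in the cow oocyte library and 0 at the 2-4 cell stage, and then 346, 107 and 72.8 RPM. In pig DNAJB9 was at 26.4 RPM in the oocyte library, 123 RPM at the morula and 32.4 RPM at the blastocyst. The pig rows of DNAJB4, DNAJC25 and DNAJB9 overlap U6, PTGR1 and THAP5, and those reads may not be told apart.

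Exchange factors and regulators of HSP70 rose in 2 of 12 cow genes and 5 of 10 pig genes from oocyte to blastocyst, and fell in 2 and 0. Of all rows 21.8% rose and 18.4% fell in cow, near the cow counts, and 26.0% rose and 19.2% fell in pig. The list medians were 0.67 (cow, all rows 0.18) and 1.88 (pig, all rows 0.43). STUB1 (CHIP), the ubiquitin ligase that marks HSP70 clients for degradation, rose in cow (1.01 to 9.87 RPM). It also rose in pig (0 reads to 20.6 RPM, 23.2 times the floor of 3 reads), where its row overlaps WDR24. BAG1, an exchange factor, was at 13.2 and 42.7 RPM in cow and rose from 10.7 to 52.5 RPM in pig, where its row overlaps CHMP5. GRPEL1, the exchange factor of HSPA9 in the matrix, went opposite ways. It fell from 73.02 to 14.7 RPM in cow and rose from 1.48 RPM (5 reads) to 16.6 RPM in pig.

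Co-chaperones and other relatives of HSP90 rose in 3 of 18 cow genes and 9 of 17 pig genes from oocyte to blastocyst. They fell in 1 and 2. Among those that rose, 2 in cow (NUDCD3 and CNPY3) and 4 in pig (UNC45A, NUDCD3, PPP5C and CNPY3) had 0 oocyte reads. Of all rows 21.8% rose and 18.4% fell in cow, so the cow counts are not above the background, and 26.0% rose and 19.2% fell in pig. The list median was 0.43 in cow, beside 0.18 for all rows, and 2.04 in pig, beside 0.43. PTGES3 (p23), which stabilises the closed form of HSP90, was at 69.4, 50.5, 1007, 304 and 102 RPM over the cow stages, with its peak at the 8-16 cell stage. In pig PTGES3 was at 5.92, 11.8, 45.8, 271 and 252 RPM and rose over the whole course by 5.19. NUDCD3 had 0 reads in either oocyte library. It rose to 45.6 RPM (cow, 74.97 times the floor of 3 reads) and 32.4 RPM (pig, 36.5 times that floor). FKBP5, an immunophilin that binds HSP90 in steroid receptor complexes, fell in cow (384 to 37.9 RPM) and pig (98.6 to 13.7 RPM).

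In the cytosol, subunits of the TRiC chaperonin, which folds actin and tubulin, and of prefoldin, which feeds it, rose in 5 of 14 cow genes and 4 of 11 pig genes from oocyte to blastocyst, and none fell. Of all rows 21.8% rose and 18.4% fell in cow and 26.0% rose and 19.2% fell in pig. The list medians were 0.74 (cow, all rows 0.18) and 1.20 (pig, all rows 0.43). CCT6A was at 1 read in the cow oocyte library and 60.3 RPM in the blastocyst library. CCT4 rose in pig from 13.6 to 193 RPM after a low of 2.84 RPM at the 8-16 cell stage, and was at 36.9 and 121.5 RPM in cow. At the pig step to the morula all 11 TRiC and prefoldin genes had a difference above 0, and 3 of them were called, where 12.0% of all rows rose; the median was 1.52 beside 0.18 for all rows.

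ER folding enzymes and genes of the unfolded protein response rose in 6 of 20 cow genes and 6 of 18 pig genes from oocyte to blastocyst, with 1 falling in each species. Of all rows 21.8% rose and 18.4% fell in cow and 26.0% rose and 19.2% fell in pig, so the shares rising are near the background. The list medians were 0.75 (cow, all rows 0.18) and 0.64 (pig, all rows 0.43). CALR (calreticulin), the ER lectin chaperone, rose in cow (27.8 to 218 RPM) and pig (74.3 to 509 RPM). P4HB, a protein disulfide isomerase, rose in cow (10.95 to 49.2 RPM) and pig (3 reads to 84.7 RPM). ATF4, the transcription factor translated under ER and amino acid stress, rose in cow (16.6 to 105 RPM) and pig (11.8 to 113 RPM). At the cow step from morula to blastocyst, where HSP90B1 rose, 7 of 20 genes of this list rose (CALR, PDIA4, PDIA6, CRELD2, MANF, XBP1 and ERN1) and none fell, where 11.9% of all rows rose and 11.5% fell; the median was 1.33 beside -0.11 for all rows. ERO1B, which re-oxidises disulfide isomerases, rose in cow from 5.07 to 91.9 RPM and fell in pig from 381 to 5.63 RPM.

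Genes of mitochondrial import and quality control rose in 2 of 14 cow genes and 8 of 14 pig genes from oocyte to blastocyst, and fell in 3 and 0. Of all rows 21.8% rose and 18.4% fell in cow, so the cow counts are near or below the background, and 26.0% rose and 19.2% fell in pig. The list median was 0.16 in cow, beside 0.18 for all rows, and 2.54 in pig, beside 0.43. LONP1, a matrix protease, was at 2.64 and 7.19 RPM in cow and rose from 16.3 to 381 RPM in pig, where its row overlaps HSD11B1L. CLPX, the unfoldase of another matrix protease, fell from 787 to 29.8 RPM in cow and was at 168 and 86.1 RPM in pig. DNAJC19, a J-domain protein of the import motor, rose in cow (6.09 to 38.6 RPM) and pig (18.95 to 100.5 RPM). GRPEL1, GRPEL2, DNAJC19, HSCB and TRAP1 are among the genes that stand in 2 of these lists and count in each. In cow the genes that fell in the exchange factor list, GRPEL1 and GRPEL2, also count as falling in the mitochondrial list.

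**Figure D4:**
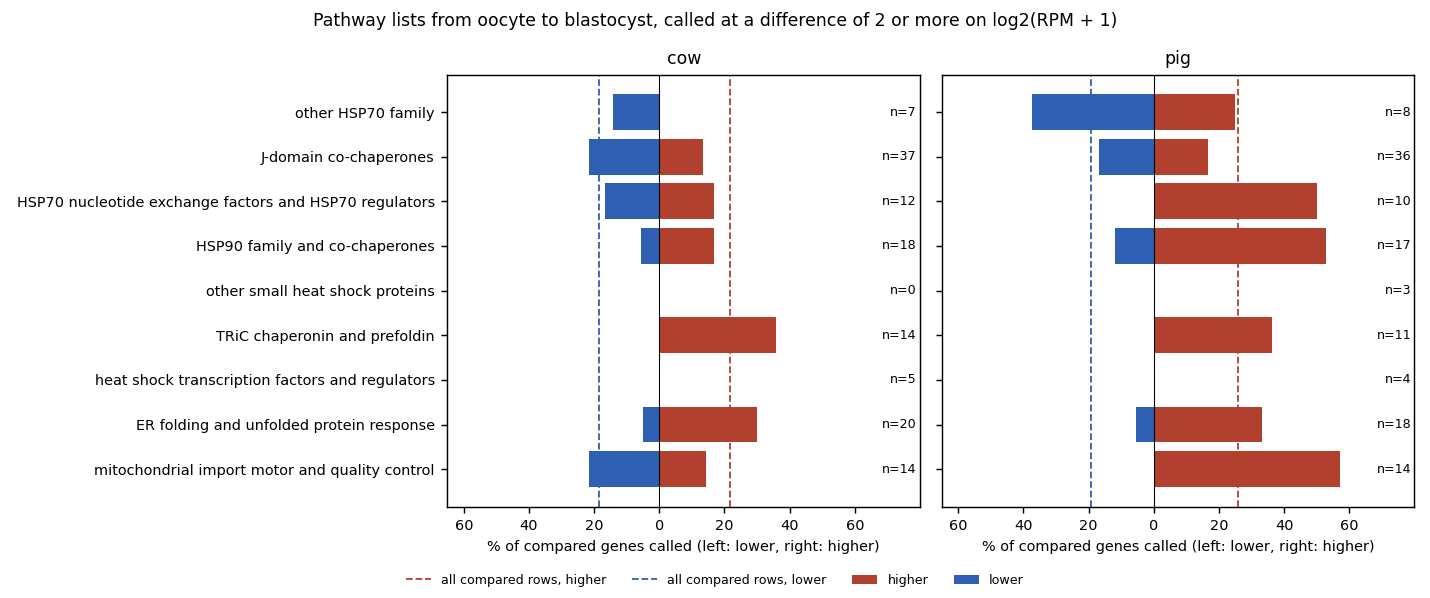
Percentage of the compared genes of each pathway list called lower (left) or higher (right) from oocyte to blastocyst, in cow and pig, with the number compared (n); dashed lines mark the share of all compared gene rows called in that direction. In pig 8 of 14 mitochondrial import and quality control genes and 9 of 17 genes of the HSP90 list were called higher, and in cow 2 of 14 and 3 of 18.

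The heat shock transcription factors and their regulators had 0 genes called from oocyte to blastocyst among 5 in cow and 4 in pig, where 40.2% of all cow rows and 45.2% of all pig rows were called either way. The list medians were 1.59 (cow, all rows 0.18) and 0.89 (pig, all rows 0.43). HSF2, a factor active in development, was at 4.06, 5.18, 58.7, 55.7 and 19.1 RPM over the cow stages. It rose at the step to the 8-16 cell stage. In pig HSF2 was at 7.70, 7.49, 5.05, 35.97 and 11.3 RPM and rose at the step to the morula. Of the other small heat shock proteins, none in cow and 3 in pig could be compared from oocyte to blastocyst, and 0 were called; the pig median was 0.45, beside 0.43 over all rows. HSPB6 was at 7.40, 6.77, 15.2, 10.99 and 10.5 RPM over the pig stages, and its row overlaps a gene without symbol.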

How the data were processed

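The deposited values are log2 values, 1 table per species, from libraries of amplified cDNA. Per the submitters' processing notes, Trim Galore 0.6.4, HISAT2 2.1.0 and the builds UMD3.1 and Sscrofa11.1 were used; counting, annotation and use of strand are not given in the sources used here, and coordinates are those of the tables. In each column at least 99.97% of the values above the lowest are whole multiples of 1 read (tolerance 0.02). The authors' log2 values are therefore log2 of scaled read counts, with 0 reads written as 0.9 of a read. They were taken as log2 RPM, and the read totals and shares of library reads rest on that. Differences used the deposited values; levels used recovered reads. Wilson and exact intervals came from scipy 1.17.1. No test was possible with 1 library per group. Of repeated symbols the row with the highest mean was used. The call function was tested on simulated data.

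The members and lists were chosen with earlier results of these data known. List genes were named by rule: per list and species the 2 with the widest range among those reaching 10 RPM, and up to 3 called the same way in both species from oocyte to blastocyst; those shown are a part of them. PDIA4, PDIA6, CRELD2 and XBP1 were named after their values were seen. Alternatives covered pseudocount, scaling, thinning, threshold, minimum and repeated rows. The planned share of HSP90AA1 against HSP90AB1 reads was not run, since each was analysed in 1 species.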

Additional observations from a re-analysis of the deposited data

Results flagged for a closer look

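HSPB1 moved in opposite directions from oocyte to blastocyst, by 6.25 on the log2(RPM + 1) scale in cow and by -2.60 in pig. GRPEL1 moved by -2.23 in cow and by 2.83 in pig, and ERO1B by 3.94 in cow and by -5.85 in pig. With 1 library per stage the difference between species was not tested for any of these.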

How the results depend on the processing

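Of the counts of called chaperone genes under alternatives, 101 stayed within 1.5 times the main count and 9 did not. With a threshold of 1 the counts were 3 for the cow step to the morula, 5 for the cow course from oocyte to blastocyst, 2 each for the pig steps to the 2-4 cell, 8-16 cell and blastocyst stages, and 5 for the pig course. A pseudocount of 5 RPM gave 1 for the cow step to the 8-16 cell stage and 0 for the pig course, and quantile normalisation gave 0 for the pig step to the blastocyst. Each of 70 gene differences was recomputed under 8 settings; 23 of the 560 values changed sign, 10 of them with median-of-ratios scaling, and none of these was a called difference. Of the 112 values of called differences 5 dropped below the threshold, and 4 others passed it; these are given beside their genes. Scaling shifted the median of all cow rows from oocyte to blastocyst by 0.42 (non-mitochondrial reads) and that of pig by -0.41 (quantile), so single differences of that size are not told apart from scale. Taking 0 reads as 0 RPM, an alternative added after seeing the data, changed no call. At 0 reads the floor of 3 reads limits HSPB1 to 0.552 RPM in the cow 8-16 cell and 0.804 RPM in the pig blastocyst library. The alternatives for the share of HSP90AA1 reads were not run, since the share could not be formed. No replicate could be left out. No paired analysis was possible because each group has 1 library and no test was run.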

Other observations

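Within a single species, over 5 libraries and by the same distance, the symbol closest to cow HSPA8 was DCLRE1B (0.04), to HSPA9 DNAH1 (0.14), to HSP90AA1 EMC8 (0.15), to HSP90B1 CERS3 (0.16) and to HSPE1 SSR2 (0.23). XBP1, a transcription factor of the unfolded protein response, was the third closest to cow HSP90AA1 (0.23). In pig the closest symbol to HSPA5 was SLC15A4 (0.19) and to HSP90AB1 MED7 (0.20). This ranking within a species was chosen after seeing that few members had a row in both, and with 5 points many genes lie close to any profile.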
